A study of Mus musculus with 8 samples.

Results

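Chemokines and chemokine receptors were followed in liver RNA of mice with chemical colitis. The group was taken by gene symbol: every Ccl, Cxcl, Ccr or Cxcr gene whose symbol goes on with a number, plus Xcl1, Xcr1, Cx3cl1, Cx3cr1 and the atypical receptors Ackr1 to Ackr4. It held 56 of the 22180 genes measured by rows naming a single gene, 34 ligands and 22 receptors. Total RNA of whole liver was hybridised to 8 Affymetrix Mouse Gene 2.0 ST arrays, 4 labelled IL-10 knockout and 4 labelled wild-type. All 8 mice were labelled C57BL/6, female and 6 weeks old, and all drank 3% dextran sulfate sodium (DSS), which damages the colon lining, for 7 days. No mice without DSS were analysed, so each difference is between genotype labels under colitis. The labels name no allele for the knockout. Values are log2 levels from robust multi-array averaging (RMA) by the authors, and errors are SD over n = 4 arrays a group unless SE is stated.

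Chemokines are small secreted proteins that bind receptors coupled to inhibitory G proteins and draw leukocytes along their gradients. In the liver they are made by Kupffer cells, endothelial cells, stellate cells and hepatocytes, and they steer the neutrophils, monocytes and lymphocytes that arrive with portal blood from the gut. Interleukin-10 restrains cytokine and chemokine transcription in macrophages. Atypical receptors take up or hold chemokines without G protein signalling.

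Some facts about the arrays come before the results. Il10 itself read 5.97 ± 0.32 in the arrays labelled knockout and 4.97 ± 0.08 in wild-type arrays, so it was higher under the knockout label (limma adjusted p = 0.00851). An exact permutation test, two-sided over 70 arrangements, gave its lowest possible p of 0.0286. The position of the mutation with respect to these probes is not given in the labels, so the row cannot check them. All directions are therefore those of the libraries as labelled. Although all mice were labelled female, Y-linked genes were high and Xist low on replicates 1 and 2 of both groups. Xist read 6.32 and 5.69 on these arrays labelled knockout, against 5.62 and 5.68 on the wild-type ones. On replicates 3 and 4 it read 11.82 on both arrays labelled knockout, against 11.73 and 11.68 on the wild-type ones. Replicates 3 and 4 are called the Xist arrays and replicates 1 and 2 the Y arrays, each with 2 of either group, and the difference within each is given beside the main results. All 12 hepatocyte markers measured lay above the lowest array median of 6.09. Nothing in the labels ties arrays to litters or days beyond the count of 4 mice a group, so the p-values cover only how far these arrays spread, which may be partly technical.

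Of the 56 genes, 6 were higher and 1 was lower in the arrays labelled knockout (limma, adjusted p below 0.05 over all genes), and 49 did not pass. Across all genes 3.15% passed, 1.56% higher and 1.59% lower, against 12.5% of the chemokine group. The B-cell attractant Cxcl13, the myeloid chemokine Ccl6 and the neutrophil receptor Cxcr2 rose most and kept their call in each of the 8 fits that left out an array. The neutrophil attractant Cxcl2, the T-cell attractant Ccl5 and the CCR4 ligand Ccl17 rose less, and the CXCR3 ligand Cxcl11 fell. Each of these 4 lost its call in at least 5 of those 8 fits. Ligands held 6 of the 7 calls, and receptors 1 of 22. The median log2 difference was 0.09 over the 56 genes and 0.03 over all genes tested.

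**Figure D1:**
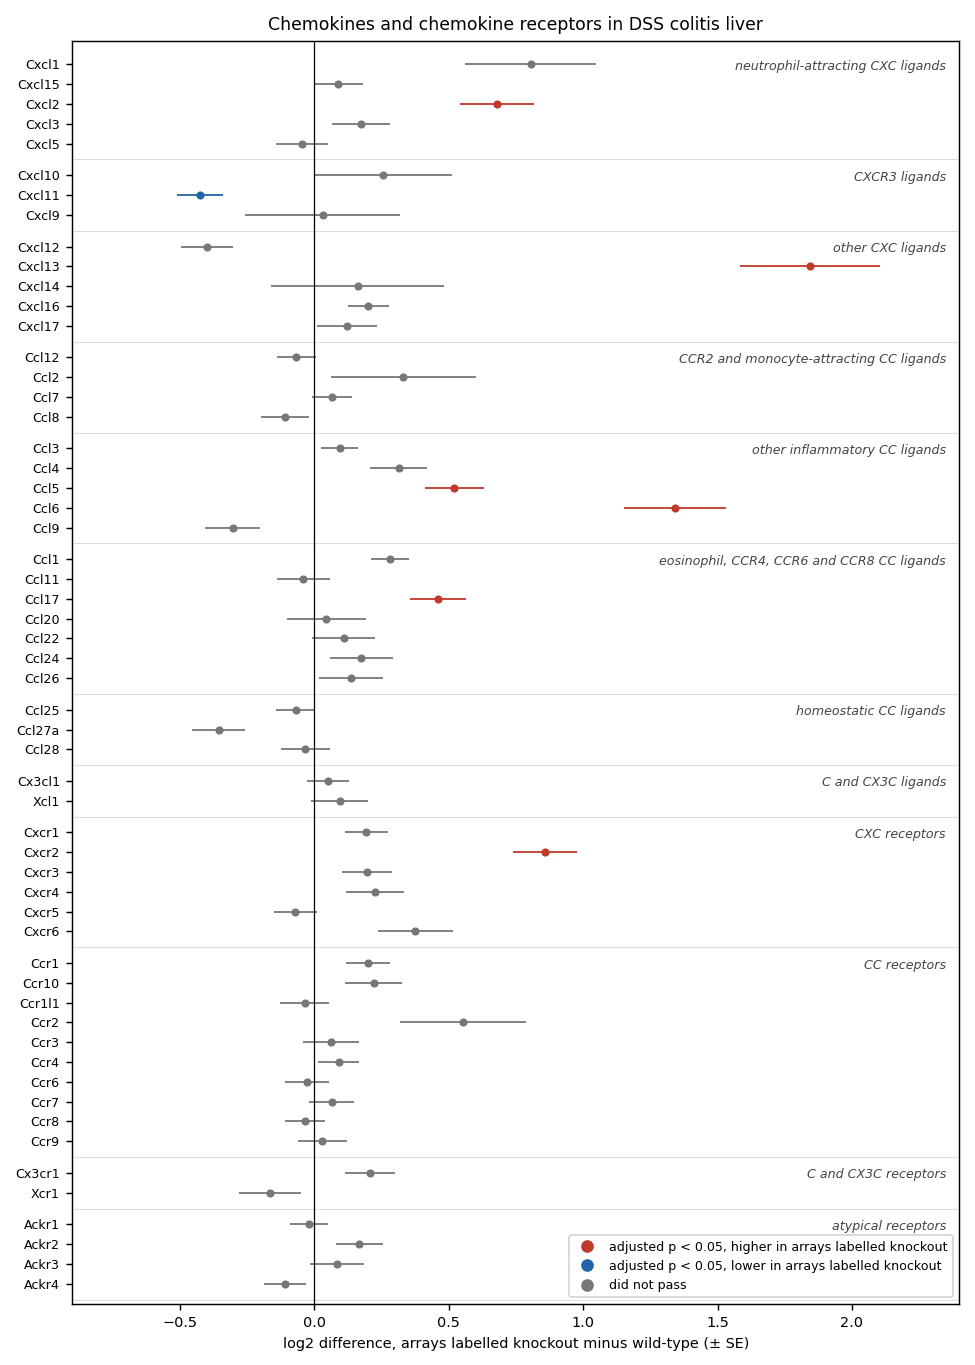
Log2 difference (horizontal axis, knockout label minus wild type, bars show SE) of each of the 56 genes, grouped by role from top to bottom. Red marks the 6 genes that rose, blue the 1 that fell and grey the 49 that did not pass; Cxcl13 (1.85), Ccl6 (1.34) and Cxcr2 (0.86) lie farthest to the right.

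Groups that did not overlap were seen for 14 of the 56 genes, 10 with every knockout-labelled array above every wild-type array and 4 with every such array below. That is 25.0%, beside 12.9% of all genes (7.2% higher and 5.74% lower). An unadjusted limma p below 0.05 was reached by 19 of the 56, and by 21.2% of all genes. In whole liver, more cells of a type and more RNA per cell cannot be told apart, which holds for every result here. Markers of infiltrating and resident myeloid cells were higher in the same arrays. Of 18 neutrophil markers 11 rose and 1 fell, and their mean log2 level ran from 7.19 to 7.75 in arrays labelled knockout and from 6.43 to 6.77 in wild-type arrays. Of 16 Kupffer cell and macrophage markers 7 rose, with mean levels of 9.83 to 10.27 in arrays labelled knockout and 9.24 to 9.56 in wild-type arrays. Of 13 monocyte and dendritic cell markers 6 rose, with mean levels of 7.03 to 7.43 under the knockout label and 6.49 to 6.74 in wild type. Of 18 T and NK cell markers 1 rose, with mean levels of 6.15 to 6.28 under the knockout label and 5.87 to 6.10 in wild type. None of 10 B and plasma cell markers was called by limma (1 at an unadjusted p below 0.05), with mean levels of 6.43 to 6.50 under the knockout label and 6.44 to 6.59 in wild type. RMA levels have no true 0 and no detection call comes with them, and the part of these cells in the chemokine results was not tested.

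The CXC ligands Cxcl1, Cxcl2, Cxcl3, Cxcl5 and Cxcl15 carry the ELR motif and attract neutrophils, mainly through Cxcr2. Cxcl2 was the only member of these 5 that passed. Cxcl2 read 8.20, 7.62, 7.94 and 8.03 on knockout-labelled replicates 1 to 4, against 7.25, 7.52, 7.00 and 7.30 on wild-type replicates 1 to 4. Every knockout-labelled array lay above every wild-type array, with replicate 2 of the knockout label (7.62) close to wild-type replicate 2 (7.52). The means were 7.95 ± 0.25 in arrays labelled knockout and 7.27 ± 0.21 in wild-type arrays, differing by 0.68 on the log2 scale (SE 0.14, limma adjusted p = 0.032), or 1.60-fold. The difference was 0.83 within the Xist arrays and 0.53 within the Y arrays, and neither passed alone (the lower limma adjusted p was 0.0511).

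Cxcl1, the neighbour of Cxcl2 on chromosome 5 and its close functional relative, had a larger mean difference and a wider spread. Cxcl1 read 10.75, 9.83, 10.73 and 10.90 on knockout-labelled replicates 1 to 4, against 10.14, 9.53, 9.34 and 9.98 on wild-type replicates 1 to 4. Replicates 1, 3 and 4 labelled knockout stood above all wild-type arrays, while knockout-labelled replicate 2 lay within the wild-type range. The means were 10.55 ± 0.48 in arrays labelled knockout and 9.75 ± 0.37 in wild-type arrays, differing by 0.80 on the log2 scale (SE 0.24, limma adjusted p = 0.101). Without knockout-labelled replicate 2 Cxcl1 passed (limma adjusted p = 0.0276), and that array was also the lowest of its group for Cxcl2. Cxcl5, a related ligand, had -0.05 (limma adjusted p = 0.806) and lay below the lowest array median in both groups, as did Cxcl3 (0.17) and Cxcl15 (0.09), where a low level and absence of signal cannot be told apart.

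The bases before the RefSeq starts of Cxcl1 and Cxcl2 are shown because these neighbours share a stretch for NF-kB, the transcription factor of the inflammatory response. Cxcl13 is set beside them as the gene with the largest rise. Each line holds the 250 bases before the gene start in GRCm38.p6, 5′ to 3′ on the plus strand, and capitals mark GGAATTTCC, a core of the sites NF-kB binds. The Cxcl1 window is chr5:90890995-90891244, the Cxcl2 window chr5:90903649-90903898 and the Cxcl13 window chr5:95956689-95956938.
Cxcl1: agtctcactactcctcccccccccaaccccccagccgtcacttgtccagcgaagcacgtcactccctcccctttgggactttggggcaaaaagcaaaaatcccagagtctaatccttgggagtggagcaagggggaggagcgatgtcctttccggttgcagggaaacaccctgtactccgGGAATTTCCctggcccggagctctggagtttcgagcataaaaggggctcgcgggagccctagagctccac
Cxcl2: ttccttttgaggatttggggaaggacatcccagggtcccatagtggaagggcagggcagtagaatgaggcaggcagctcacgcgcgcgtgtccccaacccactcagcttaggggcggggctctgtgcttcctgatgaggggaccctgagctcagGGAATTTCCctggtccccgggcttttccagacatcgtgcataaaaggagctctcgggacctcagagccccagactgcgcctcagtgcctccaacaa
Cxcl13: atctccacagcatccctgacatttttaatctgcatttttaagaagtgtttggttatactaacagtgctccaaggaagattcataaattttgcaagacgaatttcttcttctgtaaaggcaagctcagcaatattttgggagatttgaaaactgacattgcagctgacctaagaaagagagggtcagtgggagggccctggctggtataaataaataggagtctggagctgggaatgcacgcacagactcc
The longest run the Cxcl1 and Cxcl2 windows share is the 14 bases GGGAATTTCCCTGG, which hold the capitals. On either strand GGAATTTCC occurs in 0.286% of the 32851 such windows of all genes and in 5 of the 46 windows that belong to 42 of the 56 genes, those of Cxcl1, Cxcl2, Cxcl3, Cxcl10 and Ccr3. The stretch is shown because Cxcl1 and Cxcl2 share it, so those 2 windows were fixed by the choice. The Cxcl13 window does not hold these letters. Of these 5 genes Cxcl2 passed the test, Cxcl1 and Cxcl10 had 0.80 and 0.26 without passing, and Cxcl3 and Ccr3 (0.06) lay low in both groups. Other letters were also sought in these windows. TGANTCA (N is any base, either strand) was in 5 of the 46, beside 6.75% of all windows. TATAAA, on the strand of the gene only, was in 12 of the 46, Cxcl13 among them, beside 7.59% of all windows.

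Cxcl13, which recruits B cells and some helper T cells through Cxcr5, had the largest difference of the 56 genes. Cxcl13 read 10.72, 11.74, 11.63 and 12.08 on knockout-labelled replicates 1 to 4, against 9.58, 9.31, 9.94 and 9.96 on wild-type replicates 1 to 4. The groups did not overlap, with knockout-labelled replicate 1 the lowest of its group. The means were 11.54 ± 0.58 in arrays labelled knockout and 9.70 ± 0.31 in wild-type arrays, differing by 1.85 on the log2 scale (SE 0.26, limma adjusted p = 0.00851), or 3.59-fold. It was 1.91 within the Xist arrays (limma adjusted p = 0.00819), where 1.43% of all genes and 2 of the 56 passed, and 1.78 within the Y arrays (limma adjusted p = 0.0671). Its receptor Cxcr5 read 6.51, 6.62, 6.69 and 6.55 on the arrays labelled knockout and 6.70, 6.78, 6.66 and 6.51 on the wild-type arrays, with a difference of -0.07 (limma adjusted p = 0.628). The 10 B and plasma cell markers did not pass either, with differences from -0.19 to 0.10 (median -0.08), 4 of them above 0.

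Cxcl12, the ligand of Cxcr4 made by stromal and endothelial cells, was lower in the arrays labelled knockout without passing. Cxcl12 read 10.77, 10.81, 10.64 and 10.37 on knockout-labelled replicates 1 to 4, against 11.07, 11.06, 11.00 and 11.06 on wild-type replicates 1 to 4. The 4 wild-type arrays lay within a narrow band above all arrays labelled knockout, and the difference was -0.40 (SE 0.10; limma adjusted p = 0.0574). With the array set as a block it passed (limma adjusted p = 0.0350), in a fit that called 4.68% of all genes. Of 12 stellate cell and fibroblast markers 2 fell and none rose. Their mean levels were 7.59 to 8.35 in arrays labelled knockout and 8.18 to 8.54 in wild-type arrays. Of 14 sinusoidal and vascular endothelial markers 1 rose and none fell. Mean levels of that list were 9.43 to 9.47 in arrays labelled knockout and 9.21 to 9.55 in wild-type arrays. The part of these cells in the Cxcl12 values was not tested. Cxcr4 had 0.23 (limma adjusted p = 0.263), with 0.45 in the Xist arrays and 0.00 in the Y arrays. It is the only gene of the 56 within 20 Mb of Il10, a window that can keep donor-strain sequence around a targeted gene.

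Cxcl16, a membrane-bound ligand of Cxcr6, and Cxcr6 itself, found on liver T and NKT cells, both had higher means under the knockout label without passing. Cxcl16 was 9.03 ± 0.05 in arrays labelled knockout and 8.83 ± 0.12 in wild-type arrays (0.20; limma adjusted p = 0.169). Cxcr6 was 5.36 ± 0.27 in arrays labelled knockout and 4.98 ± 0.20 in wild-type arrays (0.38; limma adjusted p = 0.165), below the array medians in both groups. Cxcl14, a chemokine of epithelia, spread over more than a log2 unit within each group. It read 8.76, 8.07, 7.66 and 8.65 on the arrays labelled knockout and 8.72, 8.58, 7.37 and 7.83 on the wild-type arrays, so the groups overlapped (0.16; limma adjusted p = 0.801). Cxcl17 had 0.12.

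**Figure D2:**
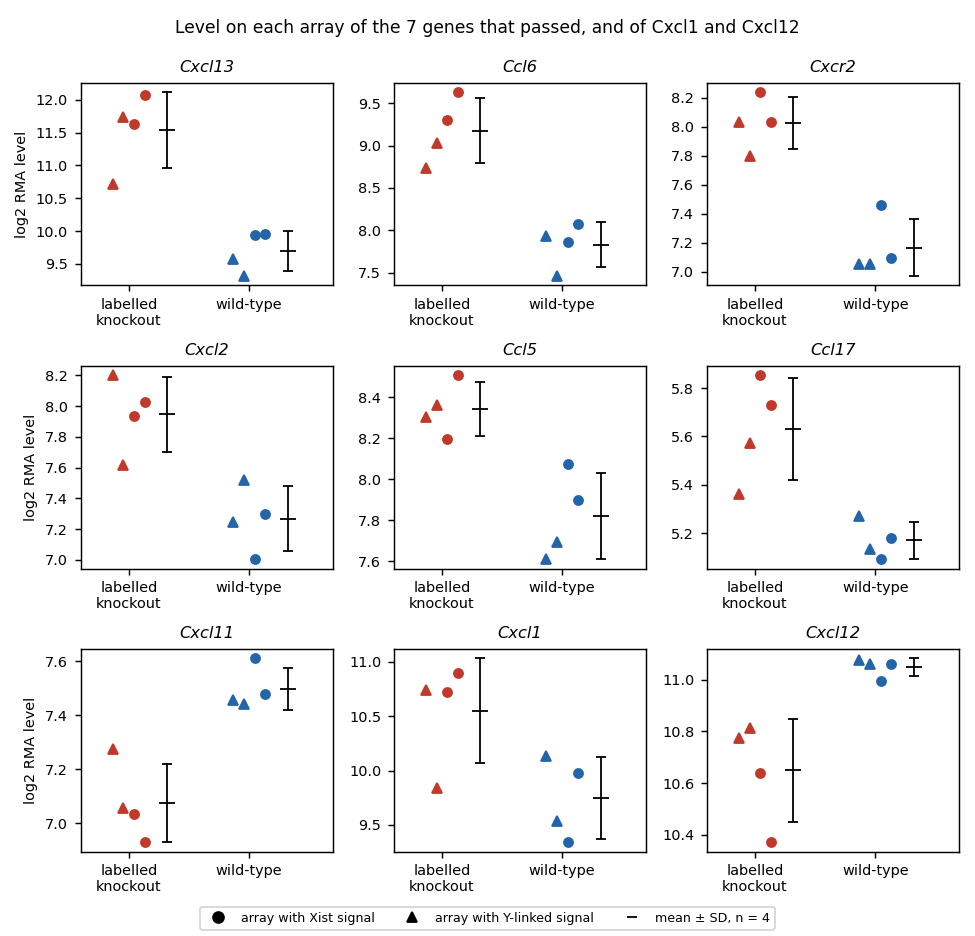
Log2 RMA level (vertical axis, a separate scale for each gene) on each array of the 7 genes that passed and of Cxcl1 and Cxcl12, with arrays labelled knockout on the left and wild-type arrays on the right. Circles are Xist arrays, triangles Y arrays, and bars show mean ± SD. The groups stand apart in every panel but that of Cxcl1, where knockout-labelled replicate 2 (9.83) lies within the wild-type range.

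The 3 ligands of Cxcr3, a receptor of activated T and NK cells, are encoded side by side on chromosome 5 and are induced by interferons, and 1 of them passed. Cxcl11 was the only gene of the 56 that fell. Cxcl11 read 7.27, 7.06, 7.03 and 6.93 on knockout-labelled replicates 1 to 4, against 7.46, 7.44, 7.61 and 7.48 on wild-type replicates 1 to 4. All arrays labelled knockout lay below all wild-type arrays, differing by -0.42 on the log2 scale (SE 0.09, limma adjusted p = 0.0317), which is 1.34-fold lower. C57BL/6 mice carry a frameshift in Cxcl11, so the transcript measured here does not yield the full protein. Leaving out any array but knockout-labelled replicate 1 ended the call, with limma adjusted p up to 0.0943. The Cxcl11 difference was -0.56 within the Xist arrays and -0.28 within the Y arrays, and neither passed alone (limma adjusted p = 0.098 and 0.443).

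Cxcl9 and Cxcl10 differed between arrays of the same label more than between labels. Cxcl9 read 9.05, 8.88, 7.60 and 8.72 on knockout-labelled replicates 1 to 4, against 8.10, 8.64, 8.87 and 8.49 on wild-type replicates 1 to 4. Knockout-labelled replicate 3 was the lowest of all 8 arrays for Cxcl9, and knockout-labelled replicates 1 and 2 were higher than the wild-type arrays 1 and 2. Cxcl10 read 7.44, 7.27, 6.34 and 7.28 on knockout-labelled replicates 1 to 4, against 6.58, 6.41, 7.30 and 7.02 on wild-type replicates 1 to 4. Here too knockout-labelled replicate 3 was the lowest. Over all arrays the differences were 0.03 for Cxcl9 (limma adjusted p = 0.962) and 0.26 for Cxcl10 (limma adjusted p = 0.587). In the Y arrays they were 0.59 and 0.86, where Cxcl10 passed (limma adjusted p = 0.0374) and 4 of the 56 genes did, beside 0.771% of all genes. In the Xist arrays they were -0.53 and -0.35. The interaction of label and set had an unadjusted limma p of 0.00958 for Cxcl10 and 0.0387 for Cxcl9, and neither passed adjustment over all genes (0.803 was the lowest adjusted p of the 56). Unadjusted, 5 of the 56 genes and 5.48% of all genes were below 0.05, and after adjustment 0.0271% of all genes passed. Their receptor Cxcr3 had 0.20 (limma adjusted p = 0.265).

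**Figure D3:**
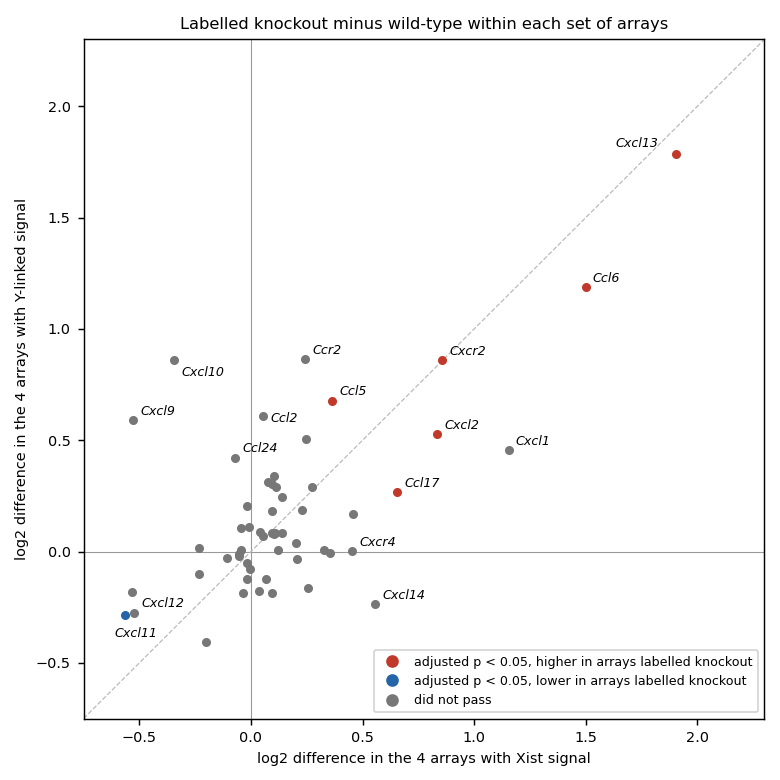
Log2 difference between arrays labelled knockout and wild-type arrays within the 4 Xist arrays (horizontal axis) and within the 4 Y arrays (vertical axis), 1 point a gene, coloured as passing over all 8 arrays. The dashed line marks equal differences. Cxcr2 (0.86 in both) lies on it, while Cxcl9 and Cxcl10 lie upper left, with opposite signs in the 2 sets.

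Ccl6, Ccl9, Ccl3, Ccl4 and Ccl5 are inflammatory CC ligands that lie in a row on chromosome 11, and 2 of these 5 rose. Ccl6, made by myeloid cells and known from rodents, rose most. Ccl6 read 8.73, 9.03, 9.30 and 9.64 on knockout-labelled replicates 1 to 4, against 7.94, 7.46, 7.86 and 8.07 on wild-type replicates 1 to 4. The lowest array labelled knockout (8.73) was above the highest wild-type array (8.07). The means were 9.17 ± 0.38 in arrays labelled knockout and 7.83 ± 0.27 in wild-type arrays, differing by 1.34 on the log2 scale (SE 0.19, limma adjusted p = 0.00851), or 2.54-fold. Its difference was 1.499 within the Xist arrays (limma adjusted p = 0.0134) and 1.19 within the Y arrays (limma adjusted p = 0.0481). Among the 7 genes that passed, Ccl6 kept its call under each of the 20 alternative fits.

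The gene next to it went the other way without passing. Ccl9 read 10.36, 10.28, 10.64 and 10.59 on knockout-labelled replicates 1 to 4, against 10.65, 10.79, 10.95 and 10.68 on wild-type replicates 1 to 4. Ccl9, also a myeloid Ccr1 ligand of rodents, was thus lower on every array labelled knockout, though the gap between the groups was narrow (10.64 against 10.65), and the difference was -0.30 (limma adjusted p = 0.132).

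Ccl5 (RANTES), released by T cells, NK cells and platelets, rose. Ccl5 read 8.30, 8.36, 8.20 and 8.51 on knockout-labelled replicates 1 to 4, against 7.61, 7.70, 8.08 and 7.90 on wild-type replicates 1 to 4. Its groups did not overlap, and it differed by 0.52 (SE 0.11; limma adjusted p = 0.0380), or 1.44-fold. The difference was 0.36 within the Xist arrays and 0.68 within the Y arrays (limma adjusted p = 0.298 and 0.0479). Of the 18 T and NK cell markers Il2rb rose (0.67, limma adjusted p = 0.0348) and 17 did not pass. The 18 differences ran from -0.25 (Prf1) to 0.77 (Cd28), with a median of 0.15 and 14 of them above 0. None of 8 platelet markers passed in limma (2 at an unadjusted p below 0.05), with mean levels of 7.44 to 7.75 in arrays labelled knockout and 7.26 to 7.60 in wild-type arrays. The highest platelet marker differences were those of Itgb3 (0.72) and Ppbp (0.44), and the part of these cells in the Ccl5 result was not tested. Ccl4 (MIP-1β) had 0.31 (limma adjusted p = 0.133) with knockout-labelled replicate 3 above the rest at 7.26. Ccl3 (MIP-1α) had 0.10 (limma adjusted p = 0.449).

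The ligands of Ccr2 that call monocytes from blood, Ccl2, Ccl7 and Ccl12, and the related Ccl8 did not pass. Ccl2 read 8.05, 6.72, 6.57 and 7.27 on knockout-labelled replicates 1 to 4, against 6.75, 6.80, 6.99 and 6.75 on wild-type replicates 1 to 4. Only knockout-labelled replicates 1 and 4 stood above the wild-type range, and replicate 1 stood well above. The difference was 0.33 (SE 0.27; limma adjusted p = 0.500). Without knockout-labelled replicate 1 it was 0.03. Ccl7 had 0.06, Ccl8 -0.11 and Ccl12 -0.07, and the last 2 lay below the array medians.

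Ccr2, the monocyte receptor for these ligands, followed a like order of arrays. Ccr2 read 6.90, 5.93, 5.50 and 6.24 on knockout-labelled replicates 1 to 4, against 5.53, 5.56, 5.60 and 5.65 on wild-type replicates 1 to 4. Knockout-labelled replicate 1 was the highest array for Ccl2 and for Ccr2, and knockout-labelled replicate 3 lay below every wild-type array for both. Its difference was 0.55 (SE 0.24; limma adjusted p = 0.214), and 0.30 without knockout-labelled replicate 1. The monocyte and dendritic cell markers had mean levels of 7.29, 7.24, 7.03 and 7.43 on knockout-labelled replicates 1 to 4. Single markers of this list ordered these arrays in unlike ways. Replicates 1 and 4 were the higher pair for Ly6c2 (7.94, 7.35, 6.97 and 8.04), Chil3 (7.81, 7.16, 7.21 and 7.75) and F13a1 (6.72, 6.23, 6.29 and 7.01). They were not for the other markers of the list, among them Fcgr4 (8.20, 8.77, 8.55 and 8.99) and Itgam (7.14, 7.16, 7.45 and 7.57). The part of monocytes in the Ccr2 and Ccl2 values was not tested.

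Among 7 ligands tied to eosinophils, helper T cells and Ccr6 or Ccr8, only Ccl17 passed. Ccl17 read 5.36, 5.57, 5.86 and 5.73 on knockout-labelled replicates 1 to 4, against 5.27, 5.13, 5.09 and 5.18 on wild-type replicates 1 to 4. All values of Ccl17 lay below the lowest array median of 6.09, so its 1.38-fold difference (0.46, SE 0.10; limma adjusted p = 0.0463) rests on a dim row. It was 0.66 within the Xist arrays and 0.27 within the Y arrays, and neither passed alone (limma adjusted p = 0.0651 and 0.507). The interaction of label and set had an unadjusted limma p of 0.046 for Ccl17, and 0.904 after adjustment. Ccl1, a Ccr8 ligand, also stood apart (0.28; limma adjusted p = 0.0601) and was also dim. Ccl24, an eosinophil attractant, had 0.17 (limma adjusted p = 0.414), with 0.42 in the Y arrays and -0.07 in the Xist arrays. Ccl11, Ccl20, Ccl22 and Ccl26 had differences between -0.04 and 0.14. The receptors Ccr3, Ccr4, Ccr6 and Ccr8 lay between -0.03 and 0.09, all of them below the array medians.

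Homeostatic ligands, which place lymphocytes in resting tissue, gave no call. Ccl27a, a skin-homing chemokine, was 7.05 ± 0.20 in arrays labelled knockout and 7.41 ± 0.07 in wild-type arrays, with groups apart (-0.36; limma adjusted p = 0.0814). In RefSeq its gene overlaps Il11ra1, the receptor of interleukin-11, so the row may read either. Ccl25 (-0.07) and Ccl28 (-0.03), which act in the gut, did not pass. Ccl19, Ccl21 and Ccl27b belong to near-identical copies and were read only by rows naming several genes, 33 in all, which were tested with every row of the table. The 13 Ccl19 rows ran from 0.17 to 0.41, with groups apart in 9, and the 9 Ccl21 rows from -0.09 to 0.01, with groups apart in 0. The 11 Ccl27 rows ran from -1.15 to -0.23, with groups apart in 10. Over all genes the groups stood apart in 12.9%. Several rows of each family hold the same values, so the rows are not separate readings. Of these 33 rows, 1 passed (limma adjusted p = 0.0201 over all rows), the Ccl27b row at -1.15, which also names 4933409K07Rik and other genes. In that fit 0.803% of all 41345 rows passed. Ccr7, the receptor of Ccl19 and Ccl21, had 0.06 (limma adjusted p = 0.687).

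Cxcr2, the main receptor for the ELR chemokines on neutrophils, was the only one of 22 receptors that passed. Cxcr2 read 8.03, 7.80, 8.24 and 8.03 on knockout-labelled replicates 1 to 4, against 7.06, 7.05, 7.46 and 7.10 on wild-type replicates 1 to 4. The groups did not overlap, and wild-type replicate 3 stood above the other wild-type arrays. The means were 8.03 ± 0.18 in arrays labelled knockout and 7.17 ± 0.20 in wild-type arrays, differing by 0.86 on the log2 scale (SE 0.12, limma adjusted p = 0.00815), or 1.81-fold. It differed by 0.86 within both sets of arrays (limma adjusted p = 0.0690 in the Xist arrays and 0.0374 in the Y arrays). Cxcr1, the second such receptor of mouse neutrophils, had 0.19 (limma adjusted p = 0.205), again with groups apart. The neutrophil markers given above, of which 11 of 18 rose with a median of 0.81, were higher in the same arrays as Cxcr2.

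The remaining receptors did not pass. Ccr1, the receptor of Ccl6 and Ccl9, had 0.20 (limma adjusted p = 0.202) on a row below the array medians. Cx3cr1, the fractalkine receptor of patrolling monocytes and some macrophages, was 7.54 ± 0.14 in arrays labelled knockout and 7.33 ± 0.13 in wild-type arrays (0.21; limma adjusted p = 0.236), and its ligand Cx3cl1 had 0.05. Xcr1, which marks cross-presenting dendritic cells, had -0.17 (limma adjusted p = 0.434), and its ligand Xcl1 had 0.09. Ccr10 had 0.22 (limma adjusted p = 0.2645) on a row below the array medians. Its groups were apart by a narrow gap (5.462 against 5.459), with wild-type replicate 1 low at 5.02. Ccr9, which homes cells to the gut, and Ccr1l1 had 0.03 and -0.04.

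The 4 atypical receptors gave no call. Ackr1, which carries chemokines across endothelium, read 6.45, 6.29, 6.34 and 6.36 on the arrays labelled knockout and 6.26, 6.46, 6.44 and 6.35 on the wild-type arrays (-0.02; limma adjusted p = 0.899). Ackr2, a scavenger of inflammatory CC chemokines, had 0.17 (limma adjusted p = 0.307). Ackr3, which takes up Cxcl12, had 0.09, and Ackr4, which takes up Ccl19 and Ccl21, had -0.11. A p above the threshold does not show that levels were equal, and 22 of the 56 genes lay below the lowest array median in both groups.

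**Figure D4:**
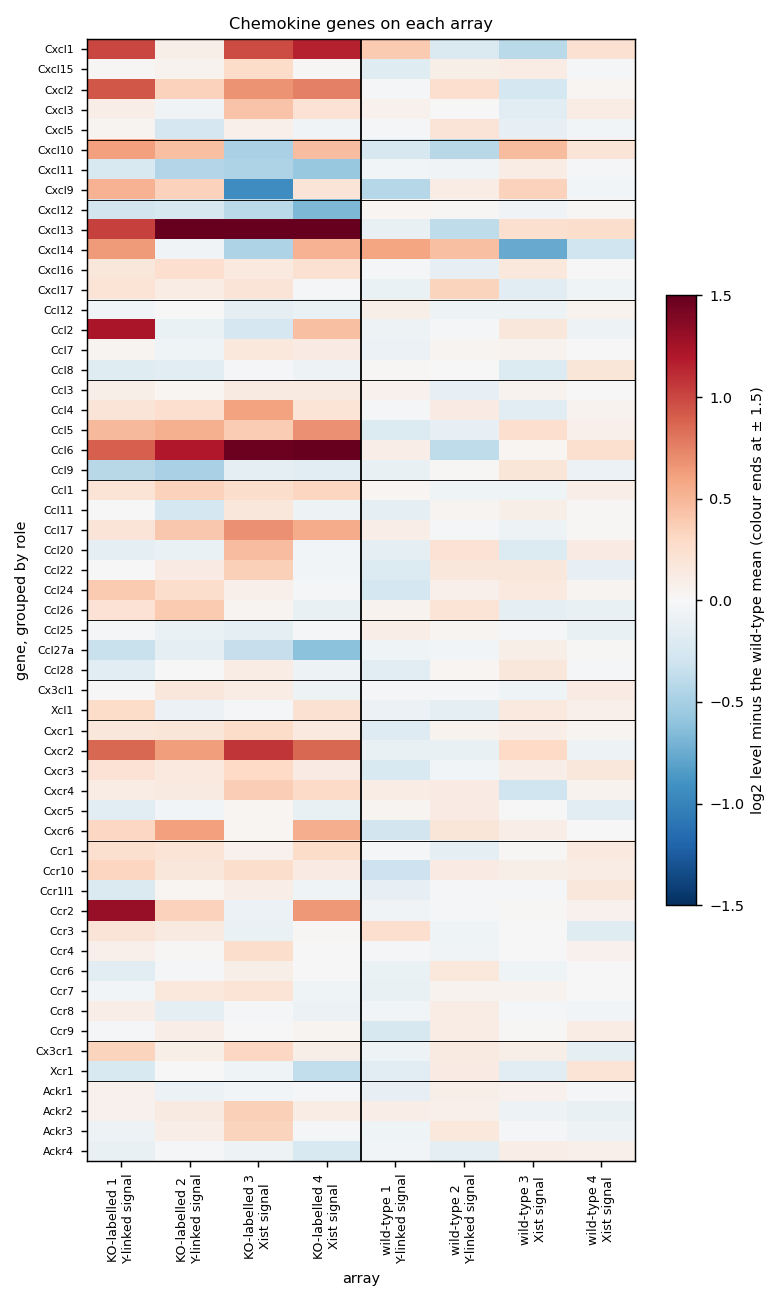
Log2 level of each of the 56 genes (rows, grouped by role) minus its wild-type mean on each array (columns, arrays labelled knockout on the left). Colours end at ± 1.5. Cxcl13, Ccl6 and Cxcr2 are red on all 4 arrays labelled knockout, while Ccl2 and Ccr2 are reddest on replicate 1 and Cxcl9 and Cxcl10 are blue on replicate 3.

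Genes that lie side by side had unlike differences. The CC ligand cluster of chromosome 11 holds 11 of the genes, of which 2 rose, with differences from -0.30 to 1.34. On chromosome 5 the 8 clustered CXC ligands had 1 rise and 1 fall, from -0.42 to 0.80, and none of the 10 receptor genes clustered on chromosome 9 passed. Ccl17 passed on chromosome 8, while Ccl22 (0.11) and Cx3cl1 (0.05), which lie beside it, did not.

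Other genes of chemokine signalling were read from a list of 48, of which 43 were measured. Of these, 10 rose, 2 fell and 31 did not pass, beside 1.56% of all genes higher and 1.59% lower, and the median difference was 0.12, against 0.03 over all genes. Downstream effectors held most of the rises, 7 of 19. Rac2, the GTPase that drives neutrophil movement, read 10.22, 10.24, 10.11 and 10.38 on the arrays labelled knockout, against 9.42, 9.64, 9.79 and 9.68 on the wild-type arrays. It rose by 0.60 (SE 0.09; limma adjusted p = 0.0130) and passed in all 8 fits that left out an array. Fgr, a Src-family kinase of myeloid cells, rose by 0.71. Pik3r5, a regulatory subunit of the phosphoinositide 3-kinase that receptors switch on through G proteins, rose by 0.67, and its catalytic partner Pik3cg had 0.07 (limma adjusted p = 0.606). Plcb2, a phospholipase of blood cells, rose by 0.41, and Was, which builds actin branches, by 0.45. These genes are expressed mainly in blood cells. The neutrophil, Kupffer cell and macrophage, monocyte and dendritic cell, and T and NK cell marker levels given above were higher in the same arrays. Those of B and plasma cells and of platelets overlapped between the labels, and the part of these cells was not tested. Fpr2, a formyl peptide receptor of neutrophils named here after its value was seen, rose by 1.28 (limma adjusted p = 0.0401).

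Among widely expressed parts of the pathway, the G protein subunits Gnai2 (0.11), Gnai3 (-0.05) and Gnb1 (-0.01) did not pass, nor did Arrb1 (-0.08) and Arrb2 (0.27), which shut receptors off. Rgs2, which speeds the switching off of G proteins, rose by 0.47, and like Cxcr4 it lies within 20 Mb of Il10. Its relative Rgs16 had the widest spread of the 43, from 6.34 to 9.66 in arrays labelled knockout and from 7.75 to 10.48 in wild-type arrays, and did not pass (limma adjusted p = 0.328). The 2 falls were Mif, a cytokine that also binds Cxcr2 and Cxcr4, by 0.51 (limma adjusted p = 0.0283), and Dpp4, a protease that trims chemokines such as Cxcl10, Cxcl11 and Cxcl12, by 0.50 (limma adjusted p = 0.0320). Dpp4 read 10.15, 9.94, 9.72 and 9.88 on the arrays labelled knockout, against 10.38, 10.31, 10.59 and 10.39 on the wild-type arrays. All of those rises and falls but that of Rac2 lost their call without at least 2 of the single arrays.

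**Figure D5:**
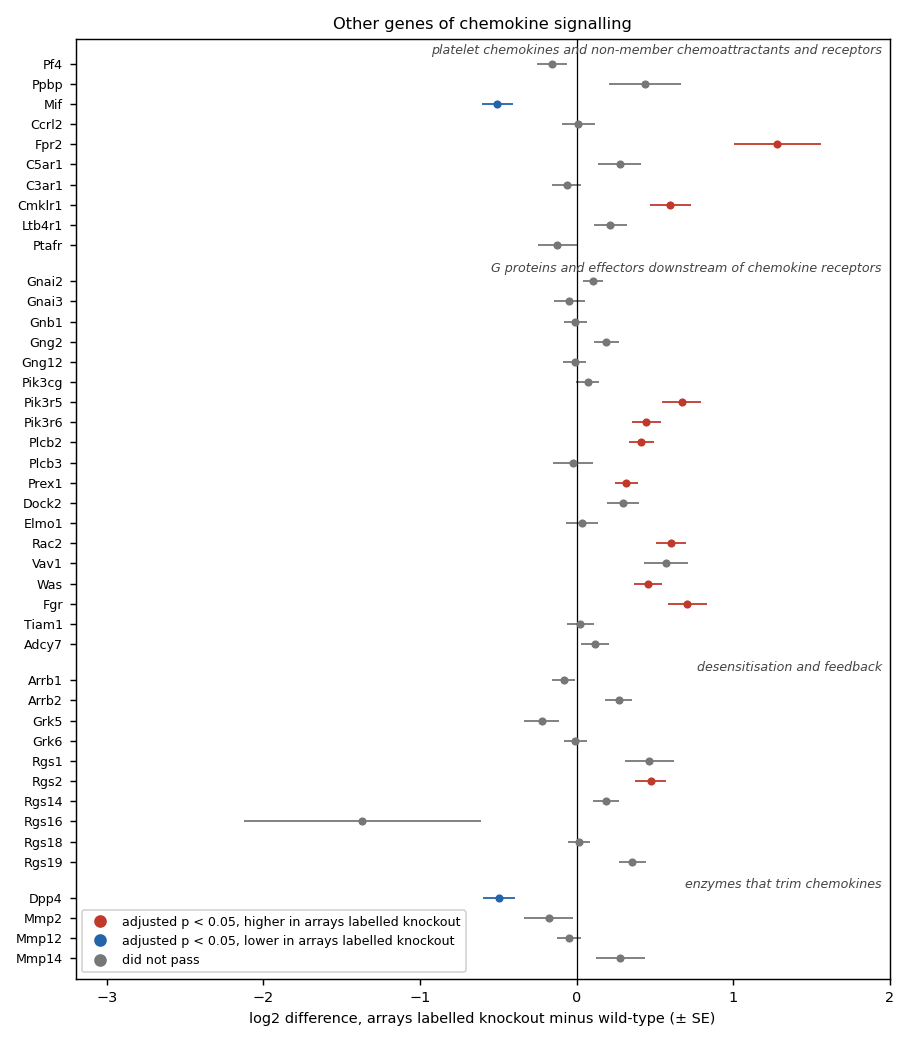
Log2 difference (horizontal axis, knockout label minus wild type, bars show SE) of the 43 measured partner genes of chemokine signalling, grouped by role from top to bottom. Red marks the 10 that rose, blue the 2 that fell (Mif and Dpp4) and grey the 31 that did not pass.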

How the data were processed

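The deposited table holds log2 values for 41345 rows and 8 arrays, with array medians between 6.09 and 6.22. Per the submitters' processing notes, the authors used RMA and R 3.0.1. Background settings were not given in the sources used here, nor was a genome build. Rows were named by the platform annotation: 23521 name 1 gene, 1814 several and 16010 are unlisted. Where a gene had several rows, the one brightest on average was used, with no filter on low values, giving 22180 genes. Of the 56 members, all matched RefSeq (GRCm38.p6) by symbol.

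Arrays labelled knockout were compared with wild-type arrays by limma 3.58.1 (lmFit, eBayes) in R 4.3.3, with Benjamini-Hochberg adjustment over all genes, and every adjusted p is from it. Named genes are the called members, the 12 next by p, the 6 brightest, a fixed list, and at most 8 called partner genes. Others are named in passing to account for every member. Members, lists and alternatives were chosen with earlier results of these data known. The fit was unpaired. The fit was tested on simulated data. No 2 arrays were alike (smallest root mean square difference 0.22). Sequences are from RefSeq, figures from matplotlib 3.10.9 in Python 3.11.15. The number of arrays limits the precision.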

Additional observations from a re-analysis of the deposited data

Results flagged for a closer look

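Among the 37 named genes, 5 values stood far from the other 3 of their group by Dixon's gap test, out of 74 groups of values checked. Chance flags about 1 group in 20. Cxcl1 read 9.83 on knockout-labelled replicate 2, below the others at 10.73 to 10.90. Cxcl10 read 6.34 on knockout-labelled replicate 3, below 7.27 to 7.44. Ccl4 read 7.26 on knockout-labelled replicate 3, above 6.85 to 6.91. Cxcr2 read 7.46 on wild-type replicate 3, above 7.05 to 7.10, and kept its call without that array. Cxcr4 read 6.83 on wild-type replicate 3, below 7.19 to 7.25.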

How the results depend on the processing

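The count of chemokine and receptor genes that rose was 6. It was 3 with every row tested, 3 with the replicate block, 2 in the Xist arrays alone, and 3 to 6 without single arrays (3 without knockout-labelled replicate 4 or wild-type replicates 1 or 4). The count that fell was 1. It was 0 with every row tested, with the replicate block, within either set of arrays alone and at a 1.5-fold minimum. It was 2 without the lowest 40% of genes, with a common median, with trend and robust settings and with array set as a block, 3 at an adjusted p below 0.1, and 0 to 2 without single arrays (2 without knockout-labelled replicate 1, 0 without any other array). Partner genes that rose, 10, became 2 with every row tested, 6 with a common median, 3 with the replicate block, 1 in the Xist arrays, 2 in the Y arrays, 5 at a 1.5-fold minimum and 1 to 10 without single arrays (10 without knockout-labelled replicates 1 or 3, at most 5 without any other). The 2 partner genes that fell became 0 with every row tested, the replicate block, either set alone or a 1.5-fold minimum, and 0 to 2 without single arrays. No gene of the 56 passed the interaction of label and array set (5 at an unadjusted limma p below 0.05), and 0 to 1 did without single arrays. The 1 is Cxcl10 without knockout-labelled replicate 4, which leaves replicate 3, its outlying value, as the only knockout-labelled Xist array and takes the spread from the other groups. Il10 kept its call in 19 alternatives (limma adjusted p 0.00556 to 0.0471); it is among the lowest 40% of genes, so that filter gives no value.

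The labels tie replicate numbers to no litter or day, and same-numbered arrays had deviations correlated by 0.27, 0.04, -0.10 and 0.29, not all above 0.1, so the numbers were not taken to pair the arrays, though same-numbered arrays share their Xist or Y-linked signal. With the replicate block Ccl6, Cxcl13 and Cxcr2 kept their calls, and Il10 had a difference of 1.00. No called chemokine or receptor gene changed sign in any alternative. Of the 56 genes, 9 changed sign in the Xist arrays and 6 in the Y arrays, none of them called. They were, in the Xist arrays, Cxcl5 (0.093), Cxcl10 (-0.35), Cxcl9 (-0.53), Ccl24 (-0.0714), Cx3cl1 (-0.0097), Xcl1 (-0.0176), Cxcr5 (0.04), Ccr6 (0.07) and Ccr9 (-0.04), and in the Y arrays, Cxcl3 (-0.005), Ccl20 (-0.17), Cxcl14 (-0.24), Ackr1 (0.0058), Ackr3 (-0.0345) and Ackr4 (0.0174). Among the named genes, Cxcl9 had -0.0208 with a common median, and Cx3cl1 had -0.001 with a common median, -0.0125 after quantile normalization and -0.0158 after cyclic loess. Without single arrays 11 of the 56 took both signs. Of those, Cxcl5 ran from -0.089 to 0.0208, Cxcl9 from -0.13 to 0.35, Cxcl14 from -0.09 to 0.37 and Ackr1 from -0.0586 to 0.0085, and Ccl11, Ccl20, Ccl28, Ccr1l1, Ccr6, Ccr8 and Ccr9 stayed between -0.11 and 0.12. The common median moved the median of all genes to -0.03, against 0.03 as deposited. The cause of these changes was not tested. Rows below the array medians, Ccl17 and Il10 among those called, carry no detection call.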
